A study of Mus musculus with 18 samples.

Results

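Socket tissue of mice with periodontitis was compared with that of control mice 3 d after extraction of the mandibular first molar. Periodontitis is an inflammatory disease of the gum, ligament and bone that hold a tooth. The comparison used 6 of the 18 RNA-seq libraries of the study, 3 biological replicates per arm, chosen by the arm and day in their titles. The other 12 libraries are the same arms at 0 d and 7 d. The control arm had the first molar extracted without periodontitis, and the periodontitis arm had it extracted with periodontitis, so the extraction and its 3 d of healing are common to both. The labels give no strain, sex, age or number of animals per library, and do not state how periodontitis was produced. They name the first molar itself as the tissue, whereas the title of the study speaks of the socket. Genes of enamel and dentine summed to 33.6 to 97.1 CPM in control and to 0.284 to 2.17 CPM in periodontitis. CPM are counts scaled to a fixed library total. Whether these transcripts came from the first molar was not tested. Col1a1, the main collagen of bone and ligament, had 55100 CPM or more in every library of 3 d.

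After a tooth is drawn, the socket fills with a blood clot. Neutrophils and monocytes enter it, wound tissue replaces it, and osteoblasts then lay down new bone while osteoclasts trim the old walls. Myeloid cells sense microbes and damage through surface receptors such as the endotoxin co-receptor Cd14 and the C-type lectin Clec4e, and respond with cytokines of the interleukin 1, tumour necrosis factor and interleukin 6 families. Neutrophil granule proteins are transcribed in the marrow, in precursors, and their transcripts decline as the cell matures.

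The 6 libraries held 15676489 to 17643758 counts. Each gene value is given as CPM, counts scaled to the TMM-adjusted library total, for control replicates 1, 2 and 3 and then in periodontitis replicates 1, 2 and 3. Arm differences are log2 fold changes ± SE, periodontitis minus control, with 3 libraries per arm, from edgeR's quasi-likelihood test, and were called where the Benjamini-Hochberg adjusted p over all 18697 genes tested was under 0.05. In whole tissue, fewer cells of a type and less RNA per cell cannot be told apart. The libraries held transcripts of tissues that the labels do not name. Of 14 measured skeletal muscle genes, the sum was 343 CPM in periodontitis replicate 3 and 13.9 to 25.2 CPM in the other 5 libraries, and the defining genes Ckm and Mb were at 0 in all 3 control libraries. Of 17 genes of autonomic ganglion neurons, the sum was 1050 CPM in control replicate 2, 691 in periodontitis replicate 1 and 968 in periodontitis replicate 2, against 26.5 to 34.9 CPM in the other 3. The part of either tissue in the results was tested only by a covariate and by leaving libraries out. With the muscle list as a covariate 0 genes were called, with the neuron list as a covariate 44 were called, and without the 3 neuron-rich libraries, which leaves 1 periodontitis library that is assumed to vary like the other groups, 0 were called.

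At 3 d, 25 genes were called, 0.134% of those tested. Of these, 13 rose (0.0695%) and 12 fell (0.0642%) in periodontitis. All 25 are protein-coding and none overlapped between the arms, a property that 20.4% of all genes tested shared. The rises included receptors of activated myeloid cells, oncostatin M, an inhibitory T cell receptor, the hedgehog receptor and osteoblast genes. The falls included 3 platelet genes, an enamel gene, a Wnt antagonist, the lipid receptor Trem2 of macrophages and the protease inhibitor Slpi. Adjusted p-values lay close together, from 0.0361 to 0.0496, and the calls rested on having all 6 libraries: leaving out 1 at a time gave 0 calls without control replicate 1 or any 1 of the periodontitis libraries, 2 without control replicate 2 and 13 without control replicate 3. Every one of the 25 kept its sign in each of these 6 fits. With arms that do not overlap, leaving out 1 library could hardly change a sign, so this is no test of stability. The same genes tested with DESeq2 gave 291 calls, 137 higher and 154 lower, among them 24 of the 25 (for Sall3 DESeq2 gave no adjusted p), and a fit of the 6 libraries of 3 d alone gave 149 calls with 20 of the 25.

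**Figure D1:**
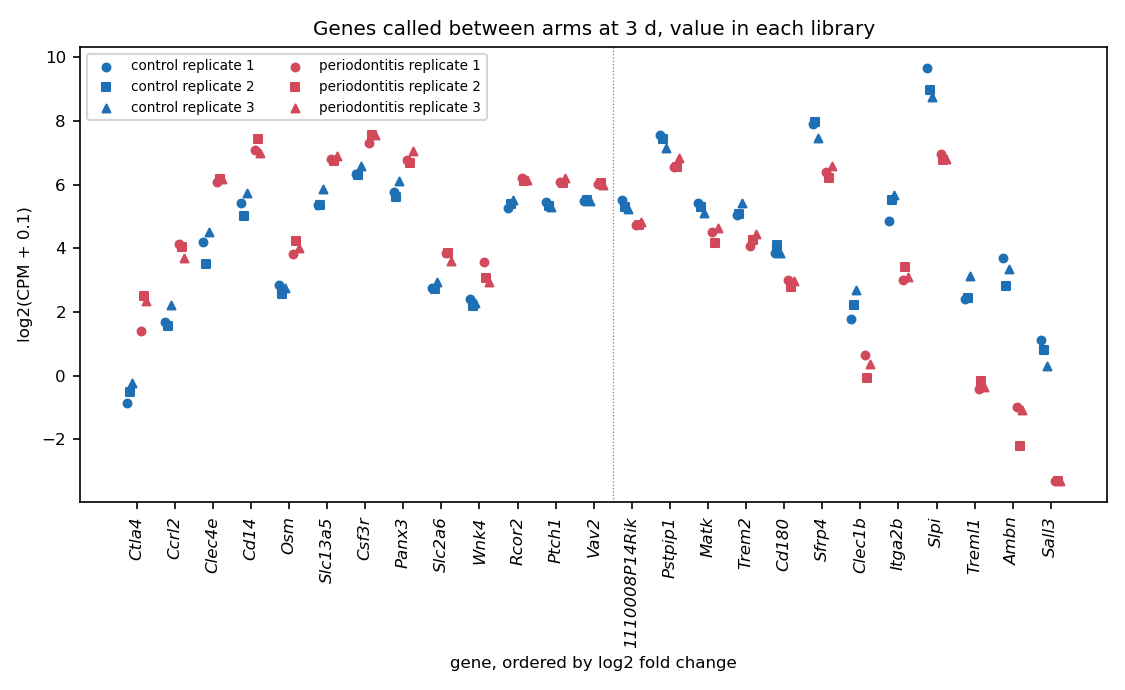
Level of each of the 25 called genes in each of the 6 libraries of 3 d, as log2 of CPM plus 0.1, with genes ordered by log2 fold change. Blue points are control and red points periodontitis, and the marker shape is the replicate number. Within each gene the colours do not mix; Sall3 sits on the floor in periodontitis, where its count was 0.

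**Figure D2:**
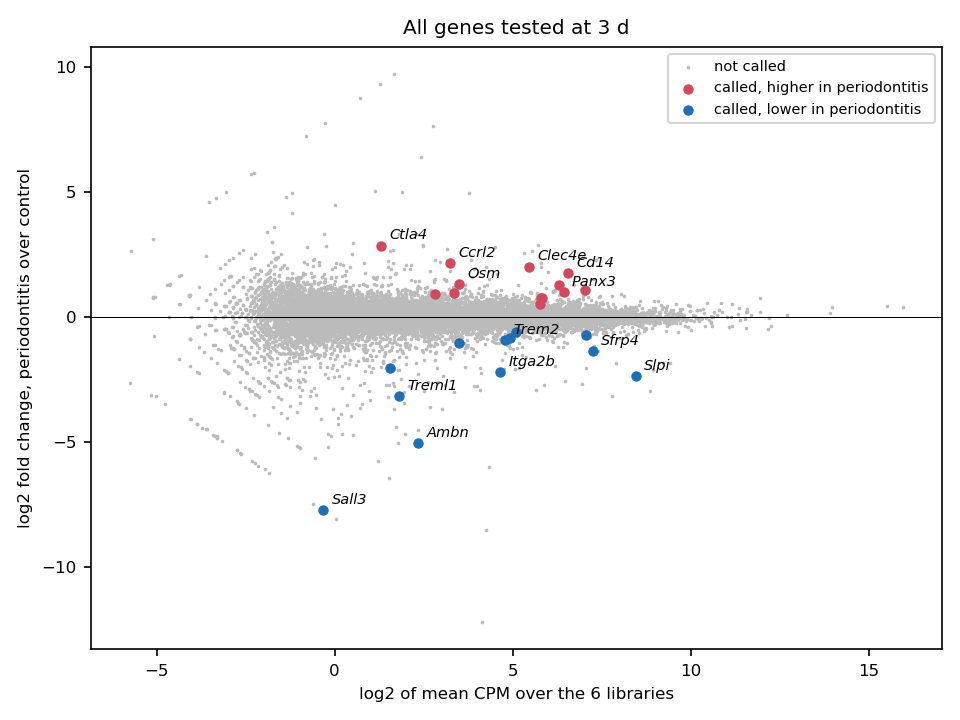
Fitted log2 fold change against log2 of the mean CPM over the 6 libraries for the genes tested; genes with no count in these 6 libraries are not drawn. The 13 called rises (red) and 12 called falls (blue) cover levels from Sall3 near 1 CPM to Slpi, with a mean of 586 CPM in control.

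Receptors of activated myeloid cells rose or lay higher in periodontitis. Of 20 such genes, 4 were called higher and 0 lower, against 0.0695% of all genes tested called higher. In 12 of the 20 every periodontitis library lay above every control library, against 9.16% of all genes tested, and the median log2 fold change was 0.76, against -0.0042 over all genes. The median was 0.87 without the 3 neuron-rich libraries and 0.66 without periodontitis replicate 3, the muscle-rich library.

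Clec4e, which encodes Mincle, a lectin by which macrophages and neutrophils sense mycobacterial and fungal lipids and material of dying cells, lay at 18.2, 11.4 and 22.8 CPM in control and at 67.8, 71.7 and 71.5 CPM in periodontitis. The 3 periodontitis libraries were nearly level and all above the control libraries, and Clec4e rose 4.03-fold (2.01 ± 0.29, adjusted p = 0.0361). Ccrl2, an atypical chemokine receptor that binds the attractant chemerin, had 3.12, 2.84 and 4.53 CPM in control and 17.5, 16.2 and 12.9 CPM in periodontitis. Its groups were well apart, and it rose 4.45-fold (2.15 ± 0.33, adjusted p = 0.0370). Cd14, the co-receptor that hands bacterial endotoxin to Toll-like receptor complexes, had 42.4, 32.5 and 53.6 CPM in control and 134, 173 and 128 CPM in periodontitis. It rose 3.39-fold (1.76 ± 0.33, adjusted p = 0.0496). Csf3r, through which the neutrophil lineage receives G-CSF, had 81.3, 78.8 and 95.6 CPM against 157, 189 and 187 CPM. It rose 2.08-fold (1.06 ± 0.20, adjusted p = 0.0496), and the lowest periodontitis library was well above the highest control library.

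Clec4e lies in a cluster of lectin genes on chromosome 6, and Clec4d, Clec7a and Clec4n on the list are of the same receptor family. Clec4d, the partner of Clec4e, had 21.1, 12.9 and 28.3 CPM in control and 37.6, 49.7 and 63.0 CPM in periodontitis (1.27 ± 0.34, adjusted p = 0.175). Clec7a, the receptor for fungal glucans, had a log2 fold change of 1.06 ± 0.32 (adjusted p = 0.258) and Clec4n one of 0.73 ± 0.29 (adjusted p = 0.457). None of these 3 passed, and the arms overlapped for Clec4n. Trem1, an amplifying receptor of neutrophils and monocytes, differed by 1.29 ± 0.28 (adjusted p = 0.0954), Hcar2, a receptor for ketone bodies and niacin, by 1.97 ± 0.51 (adjusted p = 0.161), and the interleukin 1 decoy receptor Il1r2 by 1.24 ± 0.30 (adjusted p = 0.133). Groups did not overlap for these 3 but none passed. Not all myeloid receptors lay higher. C5ar1, the complement C5a receptor, differed by 0.04 ± 0.27, Fpr2, a formyl peptide receptor, by -0.03 ± 0.33 and Trem3 by -1.07 ± 0.46, with overlapping arms in each.

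The promoter windows of the called myeloid receptor genes with the smallest p are shown as the stretches from which these 2 rising transcripts start. The sequences are from RefSeq on GRCm38.p6, all 4 genes looked up were found, and each window runs from 250 bases before the start site to 50 after, 300 bases in all, 5′ to 3′ on the strand of the gene. Capitals mark matches, on either strand, to 5 motifs: GGGA before TTCC with 2 free letters between (NF-kappa-B type), then TGANTCA (AP-1 type), TTGCNNAA (C/EBP type), AGATAA (the letters bound by GATA factors) and GGAAGT (ETS type). Of 32851 promoter windows of this length, 1.47%, 7.81%, 10.8%, 11.2% and 23.8% held these in that order. The Clec4e window, chr6:123289822-123290121 on the minus strand, held 1 match, to TTGCNNAA on the opposite strand. The Ccrl2 window, chr9:111057469-111057768 on the minus strand, is the one of 3 listed starts nearest to the start of the gene in the deposited table and held 0 matches.
Clec4e: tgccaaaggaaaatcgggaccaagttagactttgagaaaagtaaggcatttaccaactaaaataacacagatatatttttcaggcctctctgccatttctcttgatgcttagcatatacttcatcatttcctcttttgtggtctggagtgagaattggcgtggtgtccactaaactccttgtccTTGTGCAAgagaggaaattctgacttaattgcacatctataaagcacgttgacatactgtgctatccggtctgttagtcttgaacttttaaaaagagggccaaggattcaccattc
Ccrl2: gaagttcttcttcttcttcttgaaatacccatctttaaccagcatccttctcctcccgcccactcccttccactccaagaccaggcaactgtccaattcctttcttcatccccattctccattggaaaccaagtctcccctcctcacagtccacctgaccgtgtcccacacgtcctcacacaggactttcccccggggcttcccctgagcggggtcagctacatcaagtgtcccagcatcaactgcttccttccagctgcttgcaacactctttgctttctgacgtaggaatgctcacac

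Cytokine genes lay higher in periodontitis, but only oncostatin M passed the test. Of 19 measured cytokine genes 1 was called higher and 0 lower, against 0.0695% of all genes tested called higher. In the list 10 lay above all control libraries, against 9.16% of all genes tested. The median was 0.88, or 0.58 with only genes of at least 1 CPM in 9 libraries. Osm, a cytokine of the interleukin 6 family made by neutrophils and macrophages that acts on bone and stromal cells, had 7.13, 5.80 and 6.58 CPM in control and 13.85, 18.56 and 15.96 CPM in periodontitis. It rose 2.48-fold (1.31 ± 0.22, adjusted p = 0.0388). The levels of the best-known inflammatory cytokines were as follows, and none of the differences passed. Il1b had 65.2, 32.7 and 68.2 CPM in control and 221, 329 and 255 CPM in periodontitis (2.27 ± 0.56, adjusted p = 0.134). Tnf had 3.73, 3.20 and 6.204 CPM against 9.37, 19.7 and 8.57 CPM (1.52 ± 0.43, adjusted p = 0.199). Il6 had 3.18, 2.36 and 5.77 CPM against 10.5, 9.59 and 9.87 CPM (1.41 ± 0.69, adjusted p = 0.632). The arms did not overlap for these 3. Each test takes its spread from all 18 libraries, not from the 6 libraries of 3 d alone.

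Il1rn, the natural antagonist of the interleukin 1 receptor, was the cytokine-list member with the next smallest p after Osm. It had 23.1, 14.8 and 29.3 CPM in control and 81.8, 103 and 81.3 CPM in periodontitis (1.99 ± 0.38, adjusted p = 0.0556). Il17a, a T cell and innate lymphocyte cytokine that induces neutrophil attractants, had 0.557, 0.484 and 1.43 CPM against 3.43, 5.68 and 6.21 CPM (2.63 ± 0.71, adjusted p = 0.175). Csf3, the ligand of Csf3r, differed by 1.93 ± 0.51 (adjusted p = 0.168). None of the cytokines of bone and repair passed. Csf1 differed by -0.18 ± 0.14 and Tgfb1 by -0.19 ± 0.23 with overlapping arms, and Tnfsf11, the osteoclast differentiation factor RANKL, had 31.5, 25.6 and 29.5 CPM against 36.8, 34.7 and 39.99 CPM (0.36 ± 0.22, adjusted p = 0.783).

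No chemokine gene was called. Of 11 CXC chemokine genes 4 lay above all control libraries, against 9.16% of all genes tested. They were Cxcl1, Cxcl2, Cxcl3 and Cxcl5, which attract neutrophils. Cxcl3 had 5.07, 3.20 and 8.93 CPM in control and 33.9, 45.0 and 39.5 CPM in periodontitis (2.78 ± 0.55, adjusted p = 0.0669). Cxcl2 had 15.2, 8.28 and 14.2 CPM against 88.3, 115 and 72.2 CPM (2.87 ± 0.76, adjusted p = 0.167). Cxcl1 and Cxcl5 differed by 1.59 ± 0.59 and 1.52 ± 0.74. The other 7, among them the interferon-induced Cxcl9, Cxcl10 and Cxcl11 and the stromal Cxcl12, had overlapping arms. Among 11 CC chemokine genes 4 lay above and 1 below all control libraries, against 9.16% and 11.3% of all genes tested. Ccl4 (2.73 ± 0.69, adjusted p = 0.144) and Ccl3 (2.28 ± 0.68, adjusted p = 0.234), which attract myeloid and T cells, had the largest differences, and Ccl2, the main monocyte attractant, differed by 0.12 ± 0.47.

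Of 15 genes for feedback inhibitors of inflammatory signalling, none was called and all 15 had a positive log2 fold change (median 0.29). In the list 10 lay above all control libraries, against 9.16% of all genes tested. Dusp1, a phosphatase of stress kinases, had 59.5, 56.8 and 67.3 CPM in control and 122, 182 and 141 CPM in periodontitis (1.28 ± 0.28, adjusted p = 0.0954). Nfkbiz, an atypical inhibitor of NF-kappa-B, differed by 1.05 ± 0.23 (adjusted p = 0.1) and Tnfaip3, which encodes A20, by 0.74 ± 0.24 (adjusted p = 0.299). Among 10 inflammasome genes, none of them called, the sensor Nlrp3 had 12.53, 8.10 and 11.97 CPM in control and 40.1, 42.2 and 25.8 CPM in periodontitis (1.73 ± 0.34, adjusted p = 0.0669). The adaptor Pycard and the protease Casp1 lay slightly the other way, at -0.33 ± 0.27 and -0.31 ± 0.23, with overlapping arms. In 16 interferon response genes no member was called or separated the arms.

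Neutrophil granule genes had differences of mostly the opposite sign to that of the neutrophil receptor Csf3r, and none of them passed in the edgeR test above. The number that passed depended on the setting. DESeq2, with 154 of all genes called lower, called 5 of 10 primary and 9 of 16 secondary granule list genes lower. With RLE factors, or with any 1 library left out, 0 in either list were called. All 10 genes of primary granules and precursors had a negative log2 fold change (median -2.66), and in 9 of the 10 every periodontitis library lay below every control library, against 11.3% of all genes tested. The list summed to 393, 433 and 586 CPM in control and to 55.7, 113 and 124 CPM in periodontitis. Mpo, which encodes myeloperoxidase, had 125, 142 and 186 CPM against 10.2, 30.8 and 35.0 CPM (-2.58 ± 0.91, adjusted p = 0.351). Elane, neutrophil elastase, had 73.4, 80.0 and 115 CPM against 4.65, 14.5 and 16.3 CPM (-2.92 ± 0.88, adjusted p = 0.241). Periodontitis replicate 1 was the lowest library for each of these genes. Cebpe, the transcription factor of granule maturation, differed by -3.00 ± 0.71 (adjusted p = 0.121) and Prss57 by -2.72 ± 0.67 (adjusted p = 0.133). Without periodontitis replicate 1 the median of the list was -2.26, and without the 3 neuron-rich libraries it was -2.19.

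The 16 genes of secondary granules and mature neutrophils had a median of -1.86, with none called. In this list 12 lay below all control libraries, against 11.3% of all genes tested. Camp, which encodes the antimicrobial cathelicidin, had 282, 358 and 552 CPM in control and 12.51, 47.5 and 72.2 CPM in periodontitis (-3.17 ± 0.65, adjusted p = 0.0751). S100a9, one chain of calprotectin, had 737, 981 and 1497 CPM against 176, 295 and 416 CPM (-1.86 ± 0.43, adjusted p = 0.110). The order of the 3 periodontitis libraries was the same in both genes, with replicate 1 lowest and replicate 3 highest. Mmp9, a gelatinase of neutrophils and also of osteoclasts, differed by -0.13 ± 0.29, and the complement receptor subunit Itgam by -0.42 ± 0.29, with overlapping arms in both. In periodontitis replicate 1, where granule genes were lowest, Csf3r was at 157 CPM and Trem1 at 22.8 CPM, both above all control libraries. The chemokine receptor Cxcr2 was at 31.1 CPM there, within the control range of 24.7 to 35.0 CPM. All of these receptors were also lowest in that library within the periodontitis arm. Replicates 2 and 3 had 188.5 and 187 CPM for Csf3r, 31.67 and 29 for Trem1 and 45.63 and 46.82 for Cxcr2.

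**Figure D3:**
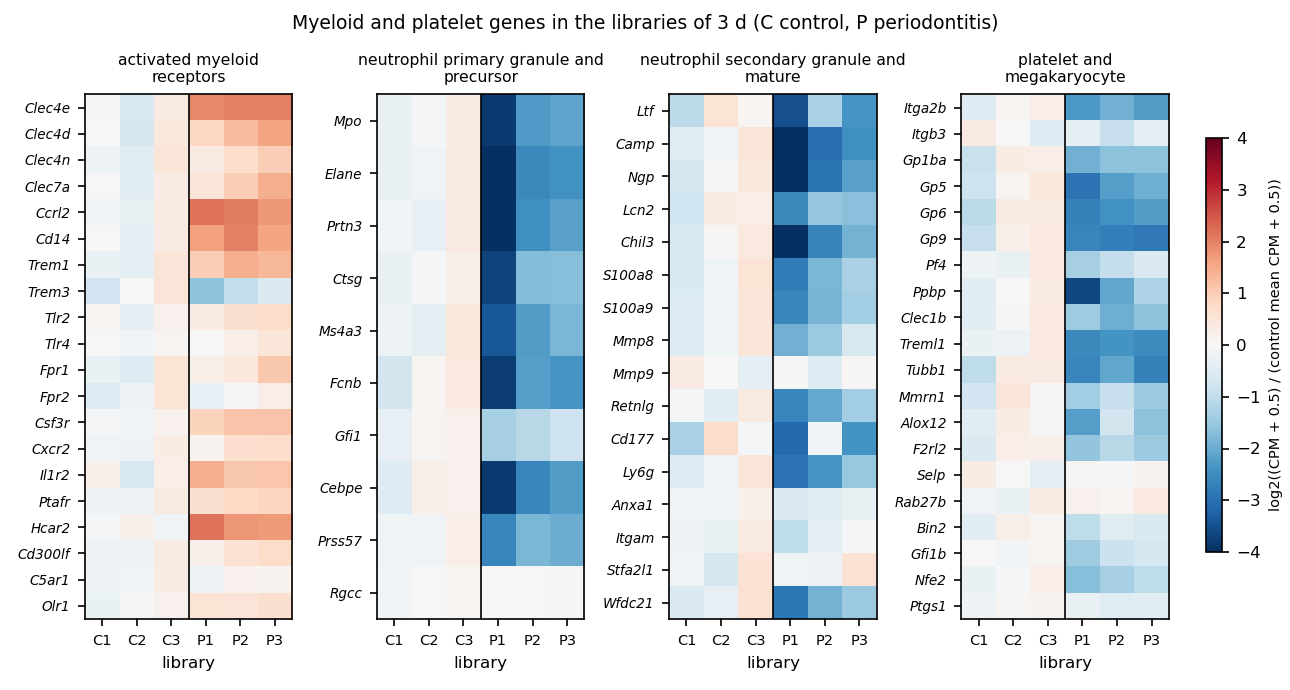
Level of the measured genes of 4 lists, without 1 platelet gene that is not reported, in the 6 libraries of 3 d, as log2 of CPM plus 0.5 over the control mean plus 0.5; colours beyond 4 in either direction are drawn at the end of the scale. C1 to C3 are control and P1 to P3 periodontitis replicates. Most myeloid receptors are red and most granule and platelet genes blue in periodontitis, with replicate 1 the deepest blue for granule genes.

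Platelet genes fell or lay lower. Of 21 measured platelet and megakaryocyte genes, 3 were called lower and 0 higher, against 0.0642% of all genes tested called lower. In 18 every periodontitis library lay below every control library, against 11.3% of all genes tested, and the median was -2.03. Without the 3 neuron-rich libraries the median was -1.53. Itga2b, the alpha subunit of the fibrinogen receptor of platelets, had 28.7, 45.2 and 50.4 CPM in control and 7.97, 10.6 and 8.38 CPM in periodontitis. It was 4.603-fold lower (-2.20 ± 0.38, adjusted p = 0.0388). Clec1b, which encodes CLEC-2, the platelet receptor for podoplanin, had 3.34, 4.59 and 6.33 CPM against 1.45, 0.851 and 1.18 CPM. It was 4.07-fold lower (-2.03 ± 0.36, adjusted p = 0.0405), from 60 to 102 counts per control library and 15 to 25 per periodontitis library. Treml1, a receptor of platelet alpha granules, had 5.18, 5.32 and 8.56 CPM against 0.640, 0.795 and 0.683 CPM. It was 8.90-fold lower (-3.15 ± 0.57, adjusted p = 0.0450), from 88 to 138 counts against 11 to 14.

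The other platelet genes did not pass. Gp9, a subunit of the von Willebrand factor receptor, had 2.90, 6.89 and 7.88 CPM in control and 0.524, 0.454 and 0.373 CPM in periodontitis (-3.68 ± 0.71, adjusted p = 0.0609). Pf4, a chemokine of alpha granules, differed by -0.93 ± 0.26 (adjusted p = 0.192). The arms overlapped for Itgb3, also an osteoclast integrin subunit (-0.52 ± 0.26), Selp, also of endothelium (0.05 ± 0.43), and Rab27b (0.23 ± 0.23).

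The windows of the called platelet genes with the smallest p are shown in the same way and from the same source. The Itga2b window, chr11:102469834-102470133 on the minus strand, held 1 match, to GGAAGT on the opposite strand. Its start site lies 239 bases from the start of the gene in the deposited table. The Clec1b window, chr6:129397047-129397346 on the plus strand, held a match to the NF-kappa-B type motif on the opposite strand. Further on it held a match to AGATAA on the strand of the gene. A match is a run of letters and was not tested as a binding site.
Itga2b: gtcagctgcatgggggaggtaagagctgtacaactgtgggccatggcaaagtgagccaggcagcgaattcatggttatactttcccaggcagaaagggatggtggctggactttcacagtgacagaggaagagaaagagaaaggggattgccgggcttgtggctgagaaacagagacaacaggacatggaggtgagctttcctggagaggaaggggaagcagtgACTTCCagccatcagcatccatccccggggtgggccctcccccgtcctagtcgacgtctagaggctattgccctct
Clec1b: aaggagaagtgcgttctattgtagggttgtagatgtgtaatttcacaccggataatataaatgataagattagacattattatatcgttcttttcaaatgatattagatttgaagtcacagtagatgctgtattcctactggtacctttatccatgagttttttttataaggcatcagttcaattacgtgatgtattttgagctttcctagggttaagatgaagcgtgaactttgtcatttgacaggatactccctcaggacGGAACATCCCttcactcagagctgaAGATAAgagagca

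Red cell and B cell genes lay lower too, with none called. All 19 measured erythroid genes had a negative log2 fold change (median -1.43), and 15 lay below all control libraries, against 11.3% of all genes tested. The alpha globin gene Hba-a2 had 51.9, 20.01 and 91.1 CPM in control and 15.7, 9.71 and 12.98 CPM in periodontitis (-2.09 ± 0.40, adjusted p = 0.0619), and Hba-a1 differed by -1.36 ± 0.29 (adjusted p = 0.0953). Hba-a1 and Hba-a2 are near-identical copies, as are Hbb-bs and Hbb-bt, so the division of reads between them is uncertain. Of 17 B cell genes, 10 lay below and 1 above all control libraries (median -1.14), against 11.3% and 9.16% of all genes tested. Tnfrsf13c, the receptor for the survival factor BAFF, had 0.947, 0.967 and 0.744 CPM against 0.175, 0.341 and 0.124 CPM (-2.01 ± 0.61, adjusted p = 0.251). The recombinase gene Rag1, of lymphocyte precursors, had 3.01, 1.81 and 1.80 CPM against 0.175, 0.284 and 0.745 CPM (-2.46 ± 0.82, adjusted p = 0.310). Ebf1, which stromal cells also express, was the exception at 0.44 ± 0.13 (adjusted p = 0.259).

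T cell genes lay higher from a low base. Of 19 measured, 1 was called higher and 0 lower, against 0.0695% of all genes tested called higher. In the list 12 lay above all control libraries, against 9.16% of all genes tested, and the median was 1.01. Ctla4, the inhibitory receptor of activated and regulatory T cells, had 0.446, 0.605 and 0.744 CPM in control and 2.56, 5.51 and 4.97 CPM in periodontitis. It rose 7.203-fold (2.85 ± 0.47, adjusted p = 0.0388), from 8 to 12 counts per control library and 44 to 97 per periodontitis library. Icos, a co-stimulatory receptor, had 1.23, 1.09 and 3.10 CPM against 5.41, 6.98 and 8.32 CPM (1.93 ± 0.45, adjusted p = 0.114), and the inhibitory receptor Pdcd1 differed by 1.73 ± 0.42 (adjusted p = 0.131). The receptor chain Cd3e differed by 1.63 ± 0.56, the regulatory T cell factor Foxp3 by 1.40 ± 0.44 and Cd4, which macrophages can share, by 0.04 ± 0.32. None of these 5 passed.

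Most macrophage genes lay lower, and 1 passed. Of 18 monocyte and macrophage genes, 1 was called lower and 0 higher, against 0.0642% of all genes tested called lower. The list had 13 genes below and 2 above all control libraries, against 11.3% and 9.16% of all genes, and its median was -0.64. Trem2, a receptor for lipids on tissue macrophages and osteoclast precursors, had 33.2, 33.4 and 43.0 CPM in control and 16.8, 18.9 and 21.5 CPM in periodontitis. It was 1.92-fold lower (-0.94 ± 0.16, adjusted p = 0.0403). The Trem2 and Treml1 genes lie in the same receptor gene cluster on chromosome 17 of GRCm38 (48346401 to 48354147 and 48359916 to 48367176, both on the plus strand), and both fell. Of their relatives in that cluster, Trem1 (48232768 to 48246924) had a difference of the opposite sign (1.29 ± 0.28, adjusted p = 0.0955) and Trem3 one of the same sign (-1.07 ± 0.46, adjusted p = 0.512), neither called. The complement gene C1qa had 98.3, 87.8 and 132 CPM against 55.9, 78.0 and 57.8 CPM (-0.73 ± 0.22, adjusted p = 0.232), and the mannose receptor Mrc1 differed by -0.75 ± 0.20 (adjusted p = 0.162). The pair above control were both enzymes that use arginine. Nos2, the inducible nitric oxide synthase, had 13.3, 8.04 and 13.7 CPM against 78.8, 98.2 and 28.0 CPM (2.55 ± 0.51, adjusted p = 0.0711). Arg1, arginase, had 27.1, 23.9 and 34.0 CPM against 71.9, 93.5 and 133 CPM (1.81 ± 0.71, adjusted p = 0.441). Periodontitis replicate 3 was the lowest of its arm for Nos2 and the highest for Arg1. Cd180, a Toll-like receptor homologue of B cells and myeloid cells, had 14.2, 17.0 and 14.3 CPM against 7.91, 6.75 and 7.76 CPM and was 2.03-fold lower (-1.02 ± 0.18, adjusted p = 0.0388). All 8 genes of MHC class II and all 16 cell cycle genes had negative log2 fold changes, with none called.

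**Figure D4:**
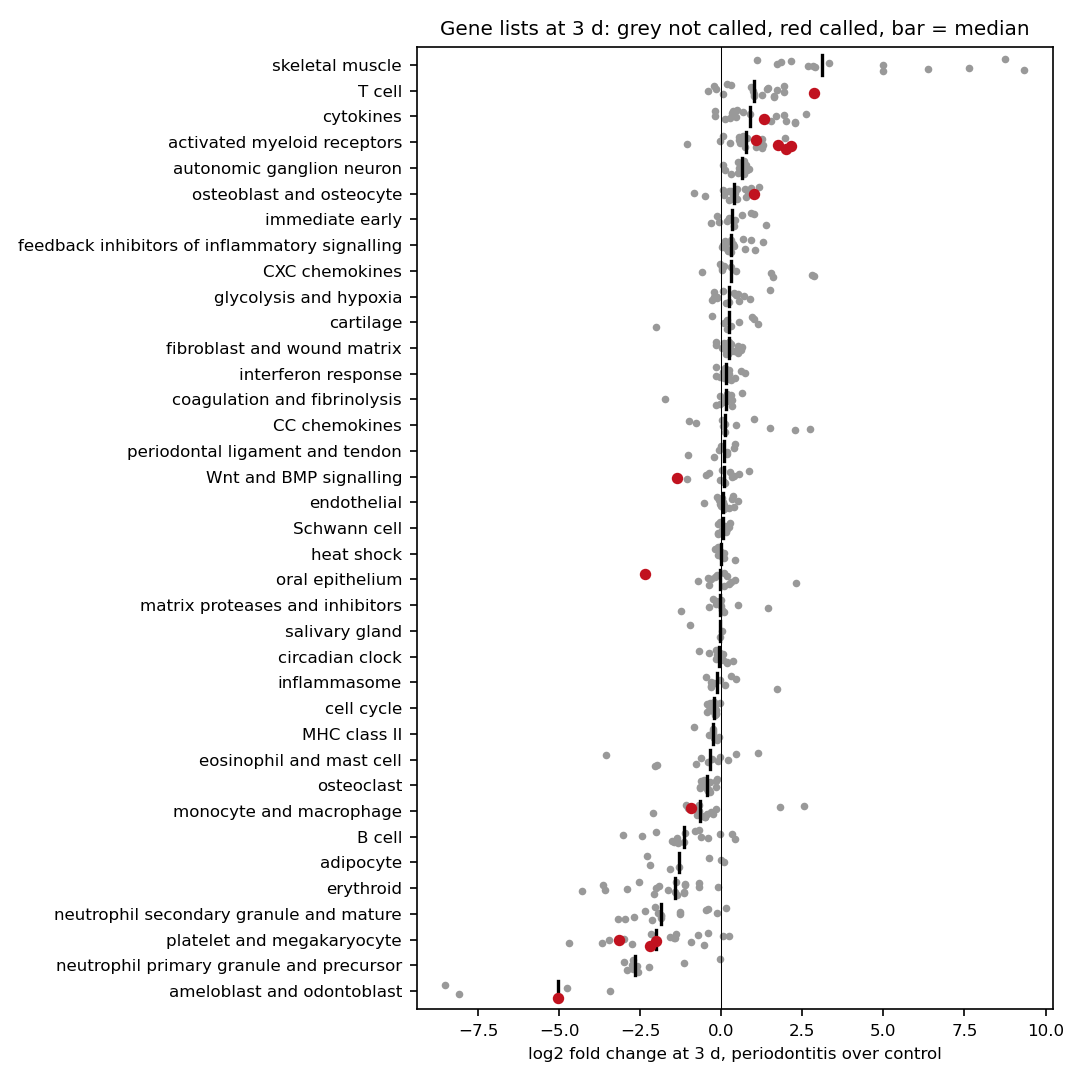
Fitted log2 fold change at 3 d of every measured gene in each of the 37 lists, ordered by the list's median (black bar). Red points are called and grey points are not. Fitted values of genes with no count in 1 arm, such as Ckm in control, depend on the fit and are no measure of size; the skeletal muscle list at the top rests on periodontitis replicate 3.

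Osteoblast genes lay slightly higher and 1 was called. Of 20 osteoblast and osteocyte genes, 1 was called higher and 0 lower, against 0.0695% of all genes tested called higher. The list had 11 genes above and 2 below all control libraries, against 9.16% and 11.3% of all genes, and its median was 0.41. Panx3, a channel of osteoblasts and maturing cartilage cells, had 54.1, 49.2 and 69.5 CPM in control and 110, 102 and 133 CPM in periodontitis. It rose 1.99-fold (0.995 ± 0.18, adjusted p = 0.0405). Phospho1, a phosphatase that starts mineral formation, had 2.67, 4.11 and 3.04 CPM against 8.44, 8.002 and 5.53 CPM (1.16 ± 0.26, adjusted p = 0.109). Smpd3, a sphingomyelinase needed for mineralization, had 177, 189 and 187 CPM against 368, 318 and 353 CPM (0.91 ± 0.22, adjusted p = 0.127). Ibsp, bone sialoprotein, had 2844, 2479 and 3418 CPM against 4877, 4362 and 5673 CPM (0.77 ± 0.19, adjusted p = 0.134). The defining genes of the lineage differed less: Sp7 by 0.37 ± 0.13, Runx2 by 0.23 ± 0.17, Col1a1 by 0.39 ± 0.36 and Bglap by 0.35 ± 0.34, with adjusted p from 0.328 to 0.953. Bglap shares near-identical sequence with Bglap2, so its level is uncertain. The 2 genes below all control libraries were Mepe, a matrix protein of osteocytes (-0.85 ± 0.24, adjusted p = 0.213), and Spp1, osteopontin, which macrophages and osteoclasts also make (-0.49 ± 0.24, adjusted p = 0.629).

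Slc13a5, which encodes a citrate transporter that is abundant in osteoblasts, was outside the lists and had the second smallest p of all genes. It had 41.1, 40.9 and 57.7 CPM in control and 111, 107 and 120 CPM in periodontitis. It rose 2.42-fold (1.27 ± 0.18, adjusted p = 0.0361). Ptch1, the hedgehog receptor and itself a target of the pathway, had 43.8, 40.4 and 39.1 CPM against 67.4, 66.7 and 73.3 CPM and rose 1.68-fold (0.75 ± 0.12, adjusted p = 0.0381). Of other hedgehog genes, chosen after their values were seen, the target transcription factor Gli1 had 12.7, 17.2 and 15.8 CPM against 30.1, 35.4 and 28.4 CPM and did not pass (1.04 ± 0.21, adjusted p = 0.0761). Gli2 differed by 0.28 ± 0.31, Gli3 by -0.01 ± 0.20 and Hhip by 0.36 ± 0.70, with overlapping arms. Smo differed by 0.13 ± 0.14, with arms that did not overlap, and did not pass (adjusted p = 0.96).

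All 16 osteoclast genes had a negative log2 fold change (median -0.44) and none was called. Of these, 2 lay below all control libraries, against 11.3% of all genes tested. Acp5, tartrate-resistant acid phosphatase, had 2131, 1658 and 1381 CPM in control and 1541, 1000 and 1521 CPM in periodontitis (-0.35 ± 0.21, adjusted p = 0.777). Ctsk, cathepsin K, had 4256, 3300 and 2713 CPM against 2741, 1968 and 2951 CPM (-0.42 ± 0.20, adjusted p = 0.617). In both genes control replicate 1 was the highest of the 6 libraries and periodontitis replicate 2 the lowest, and the arms overlapped. Without control replicate 1 the median of the list was -0.25, and 0 genes were called over the whole table.

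Among 14 Wnt and BMP signalling genes, 1 was called lower and 0 higher, against 0.0642% of all genes tested called lower. Sfrp4, a secreted antagonist of Wnt ligands, had 238, 248 and 176 CPM in control and 84.0, 73.6 and 96.7 CPM in periodontitis. It was 2.60-fold lower (-1.38 ± 0.24, adjusted p = 0.0388). Its relative Sfrp2 had 142, 107 and 120 CPM against 52.9, 61.9 and 64.6 CPM and did not pass (-1.04 ± 0.37, adjusted p = 0.364), and Sfrp1 differed by -0.03 ± 0.31. The antagonist Dkk1 (0.34 ± 0.30) and the Wnt target Axin2 (0.06 ± 0.19) did not pass either. Of 18 fibroblast and wound matrix genes, 7 lay above all control libraries, against 9.16% of all genes tested, and none was called (median 0.23). In the ligament and tendon list Tnmd, tenomodulin, had 9.64, 6.11 and 9.37 CPM against 3.67, 4.597 and 3.97 CPM (-1.04 ± 0.20, adjusted p = 0.0612), while Scx and Mkx overlapped between the arms. The cartilage collagen Col2a1 had 210, 232 and 196 CPM against 27.6, 69.3 and 59.8 CPM (-2.02 ± 0.57, adjusted p = 0.198).

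Tooth matrix genes were near 0 in periodontitis. Of 8 genes of ameloblasts and odontoblasts 5 could be tested and 1 was called lower, against 0.0642% of all genes tested. All 5 lay below all control libraries, against 11.3% of all genes tested. Ambn, ameloblastin, of enamel matrix and root-lining cells, had 12.8, 6.95 and 10.1 CPM in control (229, 115 and 163 counts) and 0.407, 0.114 and 0.373 CPM in periodontitis (7, 2 and 6 counts). It was 32.8-fold lower (-5.04 ± 0.79, adjusted p = 0.0370). Dspp, the main non-collagen gene of dentine, had 69.5, 29.7 and 15.9 CPM against 0.175, 0.0568 and 0.0621 CPM. It did not pass (adjusted p = 0.162) in a test that takes its spread from all 18 libraries. Odam had 9.58, 6.11 and 5.397 CPM against 0.291, 0.114 and 1.55 CPM (-3.43 ± 0.98, adjusted p = 0.211). Amtn, amelotin of junctional epithelium, had a mean of 2.06 CPM in control and 0 counts in periodontitis, which is at least 34.9-fold lower with 3 counts over the group as the floor (adjusted p = 0.195). Enam, Klk4 and Amelx were below the filter, and Amelx had 0 counts in all 6 libraries. Whether fragments of tooth or of the epithelium beside it were collected more often in control was not tested.

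Sall3, a zinc finger transcription factor, had 2.06, 1.63 and 1.12 CPM in control (37, 27 and 18 counts) and 0 counts in all 3 periodontitis libraries. It was at least 27.2-fold lower with 3 counts over the group as the floor (adjusted p = 0.0370). Slpi, secretory leukocyte protease inhibitor, which guards tissue against neutrophil elastase, had 816, 507 and 435 CPM in control and 124, 109 and 111 CPM in periodontitis. It was 5.11-fold lower (-2.35 ± 0.38, adjusted p = 0.0381). Slpi stood in the oral epithelium list, where it was the only one of 14 measured genes called and the only one whose arms did not overlap: Krt5, for example, had 14.5, 19.3 and 4.09 CPM against 3.20, 20.4 and 16.3 CPM, and the salivary and adipose lists had no call. Myeloid cells also make Slpi.

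The other 7 called genes differed by less than 2-fold. Rises were found for Vav2, an exchange factor of small GTPases (0.52 ± 0.09), Rcor2, a partner of chromatin-modifying complexes (0.76 ± 0.13), Wnk4, a kinase that regulates salt transport (0.94 ± 0.17), and Slc2a6, a hexose transporter of the glucose transporter family (0.97 ± 0.18). Vav2 had the tightest groups, 44.7, 46.0 and 44.9 CPM against 64.2, 66.5 and 63.7 CPM. Falls were found for Matk, a kinase that inactivates Src-family kinases in blood cells (-0.84 ± 0.14), Pstpip1, an adaptor of the leukocyte cytoskeleton (-0.74 ± 0.13), and 1110008P14Rik (-0.60 ± 0.11). Pstpip1 had 188, 171 and 142 CPM against 94.7, 93.1 and 113 CPM. Adjusted p for these 7 lay between 0.0388 and 0.0465.

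A further 40 genes had an adjusted p between 0.05 and 0.1, 25 of them higher and 15 lower, and groups did not overlap in any. Besides those given above they included, chosen after their values were seen, H19, an imprinted long noncoding RNA, at 23.4, 29.2 and 40.9 CPM against 55.5, 77.0 and 107 CPM (1.36 ± 0.28, adjusted p = 0.0735). Vcan, the matrix proteoglycan versican, had 105, 91.7 and 105 CPM against 186, 157 and 186 CPM (0.81 ± 0.17, adjusted p = 0.0751). Lgals3, galectin 3 of macrophages, had 207, 179 and 190 CPM against 129, 120 and 140 CPM (-0.56 ± 0.11, adjusted p = 0.0711). From the lists, Hdc, which makes histamine, had 32.7, 38.8 and 42.1 CPM against 88.3, 95.8 and 67.1 CPM (1.15 ± 0.23, adjusted p = 0.0735), whereas the mast cell protease Cpa3 differed by -0.11 ± 0.53. Egln3, a hypoxia-induced oxygen sensor, had 3.73, 2.90 and 4.34 CPM against 11.0, 10.7 and 9.62 CPM (1.51 ± 0.32, adjusted p = 0.0929), while the glycolysis genes Pgk1 and Ldha differed by -0.13 ± 0.10 and -0.13 ± 0.13. Btg2, an early response gene, came closest to the threshold (0.92 ± 0.17, adjusted p = 0.0544).

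In the lists not yet described no gene was called. Over all genes tested, 9.16% lay above and 11.3% below all control libraries. Of 12 immediate early genes 7 lay above and 1 below all control libraries, and of 15 glycolysis and hypoxia genes 6 lay above and 3 below, with Vegfa, the vascular growth factor, at 131, 133 and 130 CPM against 191, 171 and 176 CPM (0.45 ± 0.14, adjusted p = 0.267). Of 10 cartilage genes 3 lay above and 1 below, of 12 coagulation and fibrinolysis genes 1 and 1, and of 14 endothelial genes 2 and 1. In the coagulation list Serpinb2, which encodes plasminogen activator inhibitor 2, had 65.3, 19.2 and 35.3 CPM against 12.3, 12.1 and 11.6 CPM (-1.74 ± 0.68, adjusted p = 0.447). Of 12 eosinophil and mast cell genes 4 lay below and 1 above all control libraries, the lower ones including the eosinophil granule gene Prg2 at 15.6, 15.6 and 29.3 CPM against 4.65, 6.64 and 3.91 CPM (-1.99 ± 0.64, adjusted p = 0.292). Of 7 measured adipocyte genes 3 lay below all control libraries (median -1.30, or -0.67 without control replicate 1 and -0.35 with the stricter filter of 1 CPM in 9 libraries). The lists of inflammasome, interferon response, Schwann cells, salivary gland, heat shock, circadian clock, matrix proteases and ligament had no call either, and medians between -0.14 and 0.15, whose sign changed in at least 1 alternative setting; so did that of oral epithelium (-0.0246), which held 1 called gene.

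The arm difference of 3 d was then set beside those of 0 d and 7 d, which use other libraries. At 0 d 1547 genes (8.27%) and at 7 d 0 genes (0%) were called between the arms. Of the 25 genes called at 3 d, 12 were also called at 0 d, all 12 in the same direction, and 20 had the same sign, as did 60.7% of all genes tested. At 7 d 19 had the same sign, against 58.0% of all genes. The estimate was larger at 3 d than at 0 d in 22 of the 25 and larger than at 7 d in all 25; the genes were chosen for a large difference at 3 d, so this is a description. A direct test of 3 d minus 0 d called 0 of the 25 (3 of all genes, 0.016%) and one of 3 d minus 7 d called 0 (0 of all genes, 0%, with 793 at an unadjusted p under 0.05 and 14 with DESeq2).

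Some members carried the difference from the day of extraction. Osm had 54.3, 43.6 and 31.6 CPM in control and 106, 154 and 97.5 CPM in periodontitis at 0 d (1.47 ± 0.21, adjusted p = 0.00326), about the same log2 difference as at 3 d from a higher level. Ccrl2 differed by 1.77 ± 0.31 at 0 d (adjusted p = 0.00625) and Clec4e by 0.99 ± 0.28 (adjusted p = 0.0400), and at 7 d by 1.10 ± 0.35 and 1.20 ± 0.29 (adjusted p = 0.536 and 0.286). Cd14 was at 263 to 341 CPM in control and 564 to 936 CPM in periodontitis at 0 d, and at 10.99 to 28.8 and 21.2 to 43.9 CPM at 7 d, so the highest levels of both arms were those of the day of extraction. Itga2b, Clec1b, Ambn, Sall3, Panx3, Slc2a6, Ptch1 and Rcor2 were likewise called at 0 d.

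Other members were called at 3 d and on neither of the other days. Slpi in control was at 74.7 to 117 CPM at 0 d, 435 to 816 CPM at 3 d and 31.1 to 101 CPM at 7 d, whereas in periodontitis it was at 136 to 187, 109 to 124 and 21.5 to 33.2 CPM. Its arm difference was 0.76 ± 0.36 at 0 d and -1.10 ± 0.37 at 7 d, neither called, and the change of -3.12 ± 0.52 from 0 d to 3 d had the smallest adjusted p of the 25 (0.0800) but did not pass. Trem2 in control was at 9.21 to 10.5 CPM at 0 d, 33.2 to 43.0 CPM at 3 d and 18.0 to 21.7 CPM at 7 d. In periodontitis it was at 7.80 to 12.6, 16.8 to 21.5 and 20.5 to 24.2 CPM, so that 0 d and 7 d were nearly level between the arms (-0.00 ± 0.17 and 0.15 ± 0.16). Sfrp4, Cd180, Matk, Pstpip1 and 1110008P14Rik had arm differences between -0.29 and 0.36 on the other 2 days. Ctla4 differed by 0.54 ± 0.45 at 0 d and -0.22 ± 0.46 at 7 d, and Csf3r by 0.44 ± 0.19 and 0.02 ± 0.20; the differences from 3 d did not pass for either.

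Lists varied by day as well. The platelet list had medians of -1.46, -2.03 and -0.88 at 0 d, 3 d and 7 d, and the primary granule list -1.88, -2.66 and -1.30. The activated myeloid receptor list had medians of 0.64, 0.76 and 0.34, with 6 of 20 members called higher at 0 d. The macrophage list was at 0.19, -0.64 and 0.20 and the osteoclast list at 0.46, -0.44 and 0.26, so that their sign at 3 d was opposite to that of the other days (the osteoclast median of 3 d being -0.25 without control replicate 1). The T cell list was at 0.09, 1.01 and 0.16. No member of these 6 lists had a called difference between 3 d and 0 d.

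**Figure D5:**
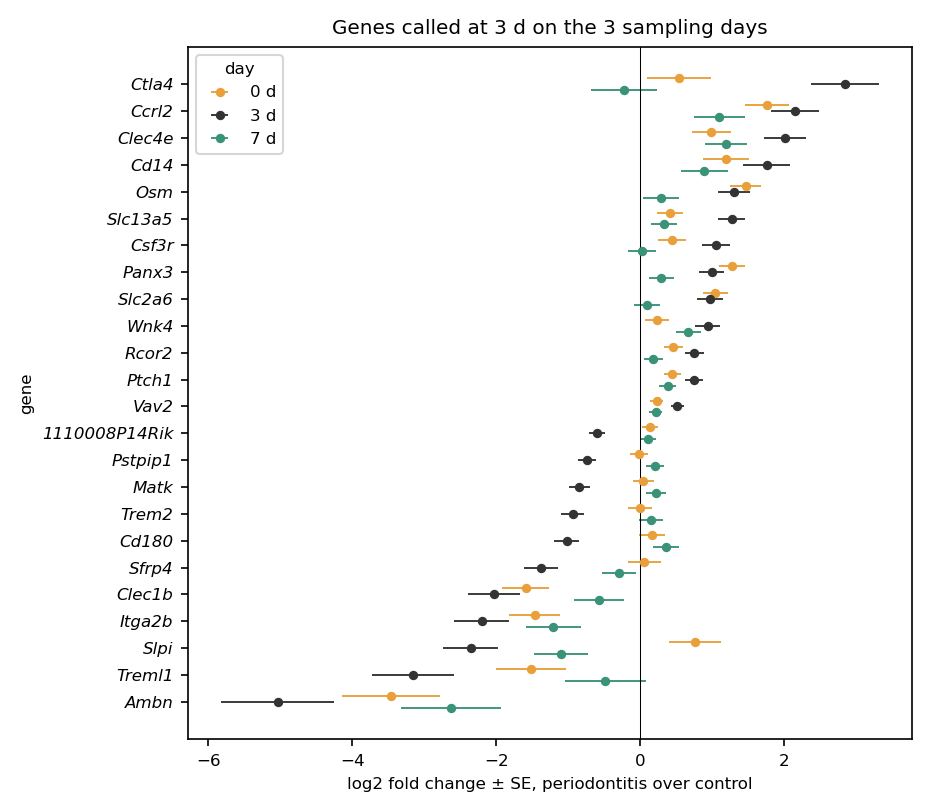
Arm difference, as log2 fold change ± SE, of genes called at 3 d, on 0 d (orange), 3 d (black) and 7 d (green); Sall3, with no count in periodontitis at 3 d, is left out. Points of the other days lie mostly between the 3 d point and 0, and those of Trem2, Cd180, Matk, Pstpip1 and 1110008P14Rik lie at or just past 0.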

How the data were processed

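The authors deposited a table of raw counts of reads per gene, whole numbers that are not normalized, with symbols, biotypes and coordinates. Per the labels' protocols, RNA was extracted with TRIzol and libraries were made with a NEBNext Ultra RNA kit. Per the submitters' processing notes, StringTie, SAMtools and HISAT2 were run on build mm9; program and strand setting of the counting are not given in the sources. Of 54532 identifiers 99.77% occur in GENCODE M21 (GRCm38) and 98.33% of these have the same start and end; printed coordinates are therefore GRCm38. Without a stated strand setting, reads of a gene and of an antisense partner may be mixed.

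All 18 libraries were fitted in edgeR 4.0.16 (R 4.3.3) with filterByExpr on 6 groups (18697 genes), TMM, glmQLFit and glmQLFTest; SEs follow from the F statistic. Contrasts were the arm difference at 3 d and that difference minus those of 0 d and 7 d, adjusted by Benjamini-Hochberg. Genes were named by rule: every called gene, for each of 37 lists the 2 members with the smallest p, and 9 genes in any case (Il1b, Il6, Tnf; Acp5 and Ctsk; Bglap, Col1a1, Runx2 and Sp7); other list members are given as members. The members, the lists, the rule and the tests were chosen with earlier results of these data known. Lists are described by counts and medians, without a test. Tested on simulated data of this comparison (18282 genes), the pipeline called 74% of genes changed 2-fold and 98% of those changed 4-fold, with 12 false calls. The changed genes were drawn only from those above a minimum mean CPM. Apart from these changes, each simulated gene had the same mean CPM in all libraries, with no muscle-rich or neuron-rich library. Whether these shares hold for genes with few counts or for such libraries was not tested. Alternatives were RLE factors, library totals (added after the data were seen), 2 other filters, DESeq2 1.42.0, the compared groups alone, a replicate block, muscle and neuron covariates, and left-out libraries. No pair of replicates agreed within sampling noise. Results of a few single genes are not reported here, though list counts and medians include them.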

Additional observations from a re-analysis of the deposited data

Results flagged for a closer look

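In 3 genes the arm difference changed between 0 d and 3 d by a test of the change itself (edgeR's quasi-likelihood test, Benjamini-Hochberg adjusted); none was among the 25 genes called at 3 d. Aplnr, the apelin receptor of endothelium, had an arm difference of 2.79 ± 0.22 at 0 d, where control lay at 5.19 to 8.07 CPM and periodontitis at 40.4 to 56.7 CPM, and of 0.33 ± 0.19 at 3 d, a change of -2.46 ± 0.29 (adjusted p = 0.00568). Bpgm, the red cell enzyme bisphosphoglycerate mutase, had -1.42 ± 0.12 at 0 d (168 to 181 against 59.9 to 76.9 CPM) and -0.09 ± 0.12 at 3 d, a change of 1.33 ± 0.17 (adjusted p = 0.00737). Tfpi2, a protease inhibitor of the coagulation system, had -1.57 ± 0.15 at 0 d (99.0 to 137 against 34.4 to 43.4 CPM) and -0.08 ± 0.15 at 3 d, a change of 1.49 ± 0.21 (adjusted p = 0.0215). With DESeq2 the same contrast called 214 genes. Groups of 3 libraries were not searched for outlying values.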

How the results depend on the processing

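The 25 calls at 3 d became 133 without a low-count filter, 39 with at least 1 CPM in 9 libraries, 149 with only the groups compared, 291 with DESeq2, 44 with the neuron covariate, 0 with the muscle covariate, 0 without the 3 neuron-rich libraries and 0 to 13 when 1 library was left out. RLE factors gave 27 and library totals 35 (20 of the 25 among them). All 25 kept their sign in each of these fits that tested them. Their arms do not overlap, so leaving out libraries could hardly change a sign. The cause of these changes was not tested. Replicate numbers gave correlations of deviations of -0.193, 0.659 and 0.525 for same-numbered libraries and from -0.732 to 0.521 for differently numbered ones. The labels state no batch and the numbers are only part of the titles, so they were not taken to pair samples. With the replicate block 53 genes were called, 15 higher and 38 lower. The 3 genes whose difference changed from 0 d to 3 d became 27 without a filter, 5 with the neuron covariate, 0 without the neuron-rich libraries, 214 with DESeq2 and 1 to 17 with 1 library left out; the count of 0 for 3 d minus 7 d became 14 with DESeq2 and was 0 in the other settings. Of the named genes that did not pass, 4 changed sign, from the ganglion neuron (Gap43), Schwann cell (Cdh19), salivary (Amy1) and interferon (Usp18) lists. Gap43 had -0.30 with the neuron covariate, -0.93 without the neuron-rich libraries and -0.0906 to 3.30 with 1 library left out. Cdh19 had -0.32, -0.56 and -0.11 to 1.07. Amy1 had -0.0667, -0.0136 and -0.0555 to 0.0892, with -0.0264 with library totals and -0.0105 with the muscle covariate. Usp18 had -0.15 without the neuron-rich libraries. At this depth genes under 1 CPM rest on few counts.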
